A study of Mus musculus with 12 samples.

Results

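Globin, heme and macrophage transcripts were followed in cells that had been sorted for a tendon reporter. A fixed set of 29 genes was looked up by symbol in the deposited gene table, 9 of them genes of red cells and 20 of them genes of macrophages. Rows were present for 28 of the 29, of 15671 rows in all. The embryonic beta-like globin gene Hbb-bh1 had no row and was not analysed here. The genes are markers of the named cell types, and the set was drawn up with earlier results of these data known.

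The cells were Scx-GFP+ cells isolated by FACS from forelimbs of E15.5 mouse embryos, in 3 Scx-/- samples and 3 control samples. In Scx-/- embryos the coding sequence of Scx, a basic helix-loop-helix transcription factor of tendon progenitors, is replaced by a lacZ cassette, and the controls were littermates whose alleles are not given sample by sample in the sources used here. Both groups carried the Scx-GFP transgene, a reporter driven by Scx regulatory sequence, and came from intercrosses of Scx+/-;Scx-GFP mice on a CD-1 background. Limbs were dissociated with trypsin for 4 min at 37 °C and strained at 40 μm before sorting, and Scx binding was mapped by ChIP-seq in 3 ChIP and 3 input samples of whole E13.5 Scx Flag/Flag forelimbs.

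The table gives a mean FPKM (fragments per kilobase of exon, scaled to the mapped fragments of a library) for each group and no value for a single sample. Every level below is therefore the authors' mean of a group, and neither a spread between replicates nor a test could be attached to it. Depth per sample is unknown. Because these are bulk values, fewer cells of a type and less RNA per cell cannot be told apart.

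A sort for a tendon reporter is designed to leave blood cells behind, so transcripts of red cells and macrophages can serve as a gauge of what else reached the library. Red cells carry hemoglobin, which joins alpha-like and beta-like globin chains around heme. In mouse development the first, primitive red cells use embryonic globins, and the definitive red cells of the fetal liver that follow use the adult-type chains. Macrophages settle in the embryonic limb early, where they engulf dying cells, and are recognised by complement C1q, lysosomal enzymes, Fc receptor adaptors and the receptor for colony stimulating factor 1.

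Some of these genes are near copies of each other, which bears on every globin value that follows. The alpha-globin genes Hba-a1 and Hba-a2 lie on the plus strand of chromosome 11 at chr11:32283511-32284465 and chr11:32296489-32297298, and the beta-globin genes Hbb-bs and Hbb-bt on the minus strand of chromosome 7 at chr7:103826534-103828096 and chr7:103812524-103813996 (mm10, GENCODE M21). Each pair differs at 1 coding base, of 429 in the alpha pair and of 444 in the beta pair. The stretch of 30 coding bases around that base is shown for each gene from the RefSeq annotation of GRCm38.p6, 5′ to 3′ on the coding strand, with the differing base in capitals.
Hba-a1: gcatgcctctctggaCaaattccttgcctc
Hba-a2: gcatgcctctctggaTaaattccttgcctc
Hbb-bs: ggtggctggagtggcCgctgccctggctca
Hbb-bt: ggtggctggagtggcTgctgccctggctca
The alpha stretches are at chr11:32284328-32284357 and chr11:32297145-32297174, and the beta stretches at chr7:103826678-103826707 and chr7:103812669-103812698. Of all 75-base windows of the Hba-a1 exons, the length of 1 read, 83.9% also occur in Hba-a2, and 63.0% of those of Hbb-bs occur in Hbb-bt. The embryonic chains are further apart, with 163 of 429 coding bases differing between Hba-a1 and Hba-x and 114 of 444 between Hbb-bs and Hbb-y, and neither comparison shares a 75-base window.

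The definitive globins were the most abundant of the genes and were higher in Scx-/- cells. Hbb-bs, an adult beta chain gene of the reference genome, averaged 156.9 FPKM in Scx-/- cells and 114.4 FPKM in control cells, a 1.37-fold difference. Hbb-bt, its neighbour, averaged 44.7 FPKM in Scx-/- cells and 34.7 FPKM in control cells, 1.29-fold apart. The alpha chain gene Hba-a1 had 17.98 FPKM in Scx-/- cells and 13.27 FPKM in control cells, and Hba-a2 had 17.85 FPKM in Scx-/- cells and 13.18 FPKM in control cells, both 1.35-fold. All 4 definitive globins were thus higher in Scx-/- cells by a similar factor. Hbb-bs ranked above 98.5% of all rows in Scx-/- cells and above 97.8% in control cells, so that a red cell transcript stood among the abundant transcripts of a tendon sort.

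The embryonic globins did not follow them. Hba-x, the embryonic zeta-like alpha chain, averaged 1.66 FPKM in Scx-/- cells and 1.64 FPKM in control cells. Hbb-y, the embryonic epsilon-like beta chain, averaged 0.8788 FPKM in Scx-/- cells and 1.005 FPKM in control cells. Summed, the 4 definitive chains came to 237.5 FPKM in Scx-/- cells and 175.5 FPKM in control cells, against 2.53 FPKM and 2.64 FPKM for the embryonic pair in Scx-/- and control cells. Embryonic transcript therefore amounted to 1.07 FPKM per 100 FPKM of definitive transcript in Scx-/- cells and to 1.505 FPKM in control cells. Leaving out both alpha genes gave 1.26 and 1.77 FPKM per 100 in Scx-/- and control cells, in the same order. The embryonic sum rests on levels near 1 FPKM, where single rows scatter widely between the groups.

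The remaining red cell genes were low. Alas2, the erythroid enzyme that starts heme synthesis, averaged 2.04 FPKM in Scx-/- cells and 1.61 FPKM in control cells (1.27-fold). Slc4a1, the band 3 anion exchanger of the red cell membrane, averaged 0.177 FPKM in Scx-/- cells and 0.207 FPKM in control cells and carried the authors' mark for a silent gene, which in this table is set only on rows of up to 0.4995 FPKM. Set against Hbb-bs in the same cells, Slc4a1 was 0.113% in Scx-/- cells and 0.181% in control cells. Globin RNA was thus detected at a high level with little transcript of a membrane protein of the same cells.

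**Figure D1:**
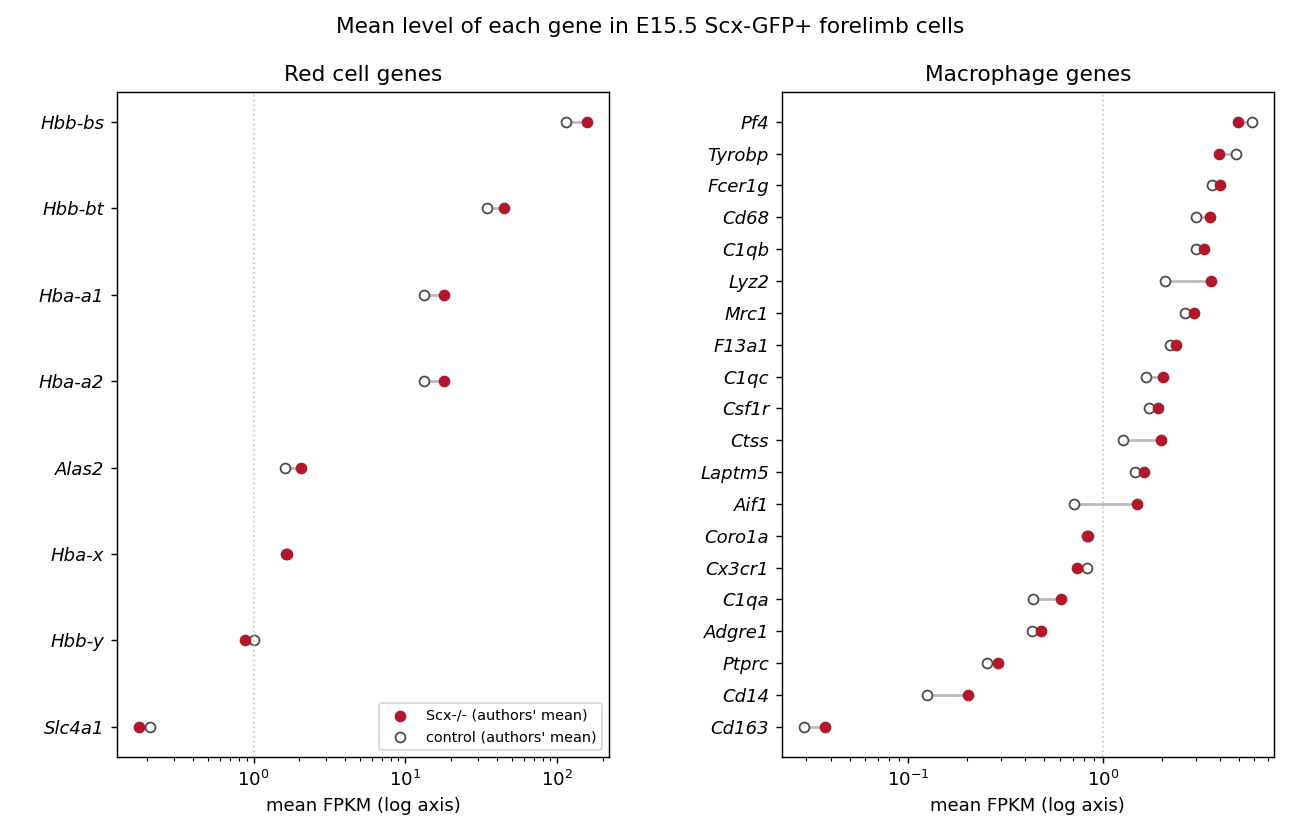
Authors' mean FPKM of each of the 28 genes with a row, on a log axis, in Scx-/- cells (filled) and control cells (open), for red cell genes (left) and macrophage genes (right). Each point is a mean over a group's samples with no error available, and the dotted line marks 1 FPKM. The 4 definitive globins lie above 10 FPKM and the macrophage genes below 6 FPKM, and the widest gaps among macrophage genes of at least 1 FPKM are those of Aif1, Lyz2 and Ctss.

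Some globin rows implied equal numbers of fragments. The FPKM of Hba-a1 divided by that of Hba-a2 was 1.007 in both groups, which equals the inverse ratio of their exon lengths, 563 and 559 bases, so that the fragment number implied for the pair was the same in each group. Hba-a1 and Hba-a2 are hence a single measurement given in 2 rows and not a pair of observations. The table also lists Hbb-b1 and Hbb-b2, names of the beta genes of another haplotype and not among the 29. Hbb-b2 had the values of Hbb-bt exactly, and Hbb-b1, at 159.0 FPKM in Scx-/- cells and 115.8 FPKM in control cells, implied 0.999 and 0.998 of the fragments of Hbb-bs in Scx-/- and control cells. Of all 15671 rows, 11 shared both values with another row. Hbb-bs and Hbb-bt were not locked in this way, with an FPKM ratio of 3.51 in Scx-/- cells and 3.30 in control cells.

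Beta chain exceeded alpha chain transcript. With the alpha pair taken once, the summed beta level was 11.2 times the alpha level in Scx-/- cells and 11.2 times in control cells. Adult hemoglobin holds equal numbers of both chains. The alpha pair has the larger share of common 75-base windows, as given above, and the part of read assignment in this ratio was not tested. The ratio was the same in both groups to 3 digits, so the difference between Scx-/- and control cells was of the same size read from alpha (1.35-fold) as from summed beta (1.35-fold).

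Among the macrophage genes the levels were lower and the differences mixed in size. The C1q chains, which together form the first component of the classical complement pathway, averaged 0.606 FPKM (C1qa), 3.32 FPKM (C1qb) and 2.03 FPKM (C1qc) in Scx-/- cells, against 0.436, 3.02 and 1.66 FPKM for the same 3 genes in control cells. All 3 were higher in Scx-/- cells, and their sum was 5.95 FPKM in Scx-/- cells and 5.12 FPKM in control cells, 1.16-fold apart. The protein joins all 3 chains in equal number, while the C1qa row lay well below the C1qb row in both groups.

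Lysosomal and secreted products of myeloid cells differed widely in ratio. Lyz2, lysozyme, averaged 3.60 FPKM in Scx-/- cells and 2.07 FPKM in control cells (1.74-fold). Ctss, the protease cathepsin S, averaged 2.00 FPKM in Scx-/- cells and 1.26 FPKM in control cells (1.58-fold). Cd68, a lysosomal membrane protein, averaged 3.56 FPKM in Scx-/- cells and 3.01 FPKM in control cells (1.18-fold). F13a1, the coagulation factor XIII subunit of tissue macrophages, was nearly level at 2.37 FPKM in Scx-/- cells and 2.22 FPKM in control cells. Lyz2 and Ctss thus stood well above Cd68 and F13a1 in ratio.

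Aif1, the actin-bundling protein also called Iba1, had the largest ratio among the 28 genes with a row. It averaged 1.4996 FPKM in Scx-/- cells and 0.712 FPKM in control cells, 2.11-fold apart, or 0.98 on the log2 scale once 0.1 FPKM was added to both means. Coro1a, another actin regulator of leukocytes, had 0.833 FPKM in Scx-/- cells and 0.839 FPKM in control cells. The cytoskeletal genes did not share a direction or a size.

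The receptors of macrophages ran from lower to higher in Scx-/- cells. Csf1r, the receptor for colony stimulating factor 1, averaged 1.91 FPKM in Scx-/- cells and 1.72 FPKM in control cells (1.11-fold). Mrc1, the mannose receptor, averaged 2.92 FPKM in Scx-/- cells and 2.63 FPKM in control cells (1.11-fold). Adgre1, which encodes the F4/80 antigen, averaged 0.479 FPKM in Scx-/- cells and 0.430 FPKM in control cells (1.11-fold). These 3 receptors gave the same factor although their levels differed. Cx3cr1, the fractalkine receptor, went the other way with 0.733 FPKM in Scx-/- cells and 0.829 FPKM in control cells (0.884-fold). Cd14, the lipopolysaccharide co-receptor, had 0.203 FPKM in Scx-/- cells and 0.125 FPKM in control cells (1.62-fold), and Cd163, the hemoglobin-haptoglobin scavenger receptor, had 0.0374 FPKM in Scx-/- cells and 0.0292 FPKM in control cells. Adgre1, Cd14 and Cd163 carried the silent mark, as did Ptprc.

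The signalling and leukocyte-wide genes completed the set. Ptprc, the leukocyte phosphatase CD45, averaged 0.288 FPKM in Scx-/- cells and 0.253 FPKM in control cells. Laptm5, a lysosomal protein of blood cells, averaged 1.62 FPKM in Scx-/- cells and 1.45 FPKM in control cells. The adaptor Fcer1g, the Fc receptor gamma chain, averaged 4.01 FPKM in Scx-/- cells and 3.64 FPKM in control cells. Tyrobp, the adaptor DAP12, averaged 3.94 FPKM in Scx-/- cells and 4.80 FPKM in control cells, and so was lower in Scx-/- cells while Fcer1g was higher. The ratio of Tyrobp to Fcer1g was 0.981 in Scx-/- cells and 1.32 in control cells. Pf4, a chemokine of megakaryocytes that fetal macrophages also make, averaged 4.94 FPKM in Scx-/- cells and 5.80 FPKM in control cells. Pf4 and Tyrobp, the highest of the 20 macrophage genes in control cells, were both lower in Scx-/- cells. A choice by control level favours genes that are lower in Scx-/- cells. Ranked in Scx-/- cells the highest were Pf4 and Fcer1g, and Fcer1g was higher in Scx-/- cells.

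The genes were next read against all other genes. Ratios are given as log2 of the Scx-/- mean over the control mean, each with 0.1 FPKM added, which understates the change of low genes. Across the 12123 genes that averaged 1 FPKM or more, the median log2 ratio was 0.00, with the 10th percentile at −0.17 and the 90th at 0.18. The 8 red cell genes ran between −0.17 and 0.46 with a median of 0.35, and the 20 macrophage genes between −0.28 and 0.98 with a median of 0.14. The medians thus differed by 0.21. Without the 4 near-identical globin rows the red cell median was −0.066, resting on Hba-x, Hbb-y, Alas2 and Slc4a1, and the difference from the macrophage genes was −0.21. The higher red cell median was therefore carried by the definitive globins.

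Among those that averaged 1 FPKM or more, 6 of 6 red cell genes and 11 of 13 macrophage genes were higher in Scx-/- cells by any amount, beside 49.8% of all such genes. The 6 red cell genes hold 5 distinct measurements, since Hba-a1 and Hba-a2 are one, and Hba-x among them was only 1.01-fold higher. Hbb-y, with a control mean of 1.005 FPKM, missed the filter on level only through its lower Scx-/- mean of 0.879 FPKM. The 6 of 6 is therefore partly made by the filter. Below 1 FPKM, 0 of 2 red cell genes and 5 of 7 macrophage genes were higher, beside 50.3% of all genes at those levels. None of the 28 genes passed 2-fold in either direction on this scale, beside 0.0577% of genes of at least 1 FPKM that were 2-fold higher in Scx-/- cells and 0.124% that were 2-fold lower. At 1.5-fold, Aif1, Lyz2 and Ctss were higher, 3 of the 13 macrophage genes of at least 1 FPKM, beside 0.462% of all such genes and beside 1.33% of those between 1 and 5 FPKM, the range in which these 3 lay. Aif1, whose control mean was under 1 FPKM, passed the filter on level through its Scx-/- mean. With 1 FPKM added in place of 0.1 FPKM, the log2 ratios were 0.546 (Aif1), 0.582 (Lyz2) and 0.407 (Ctss), and none of the 3 reached 1.5-fold (0.585). No red cell gene was 1.5-fold higher, and none of the 28 was 1.5-fold lower, beside 0.536% of all genes of at least 1 FPKM. The genes share cells of origin and are not independent of each other, so these shares are descriptions and no test was made of them.

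The scatter between the groups narrows with level, so a given ratio is more unusual in an abundant gene. Between 20 and 200 FPKM the 10th and 90th percentiles of the log2 ratio were −0.11 and 0.11, and Hbb-bs at 0.46 and Hbb-bt at 0.37 lay above that span. Between 5 and 20 FPKM they were −0.15 and 0.15, and the alpha-globins at 0.44 lay above it and Pf4 at −0.23 below it. Between 2 and 5 FPKM they were −0.21 and 0.24, with Lyz2 at 0.77 above and Tyrobp at −0.28 below. Between 1 and 2 FPKM they were −0.32 and 0.34, a span that held Csf1r, C1qc and Laptm5 and that Aif1 and Ctss passed.

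**Figure D2:**
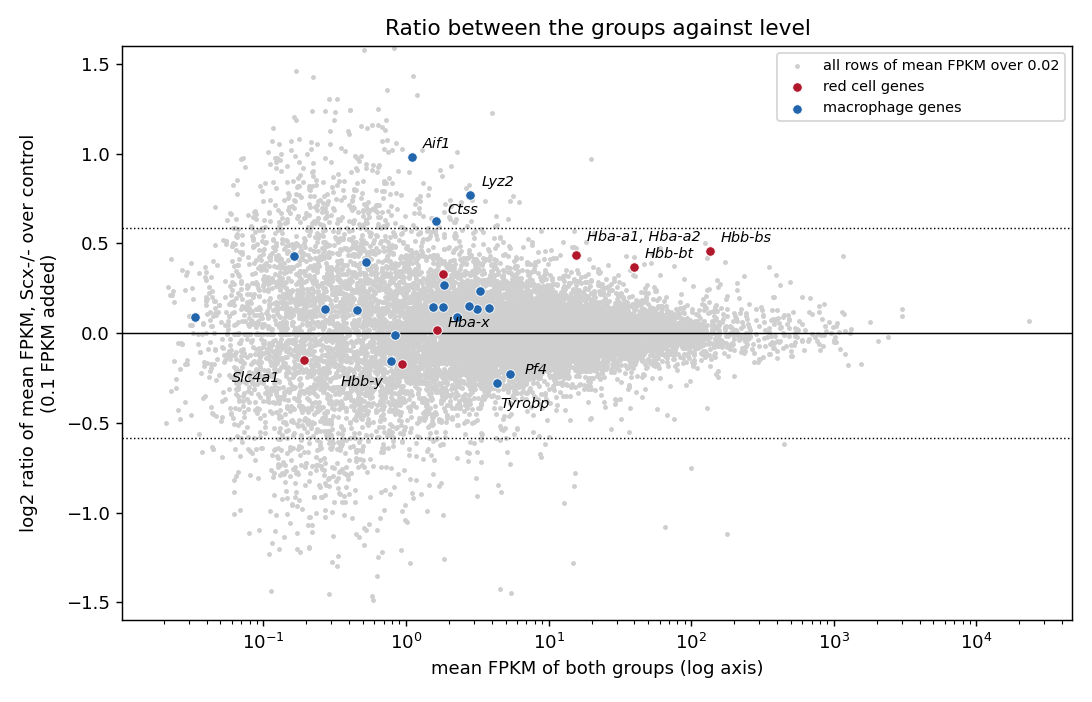
Log2 ratio of the authors' mean FPKM in Scx-/- over control cells, with 0.1 FPKM added to both, against the mean FPKM of both groups on a log axis. Grey points are rows of mean FPKM above 0.02 (17 lie beyond the vertical range), red points are the red cell genes, blue points the macrophage genes, and dotted lines mark 1.5-fold. The definitive globins lie at the upper edge of the grey points of their level, and Aif1, Lyz2 and Ctss above the upper dotted line.

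As a share of the table, both classes were small. The red cell genes summed to 242.2 FPKM in Scx-/- cells and 180.0 FPKM in control cells, which is 0.0755% and 0.0564% of the summed FPKM of all rows in Scx-/- and control cells. The macrophage genes summed to 40.9 FPKM in Scx-/- cells and 36.9 FPKM in control cells, 0.0127% and 0.0116% of the total. The red cell sum was thus 1.35-fold and the macrophage sum 1.11-fold of control. Red cell over macrophage transcript came to 5.92 in Scx-/- cells and 4.87 in control cells. Set beside Col1a1, a type I collagen chain abundant in tendon, at 1178 FPKM in Scx-/- cells and 1333 FPKM in control cells, Hbb-bs amounted to 13.3% in Scx-/- cells and 8.58% in control cells.

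Further genes of the red cell program gave mostly level values. Of 38 other red cell genes, fixed as a list with earlier results of these data known, 22 had a row and the others were not analysed here. Their median log2 ratio was 0.07, with 14 higher and 8 lower in Scx-/- cells, beside 49.8% of all genes of at least 1 FPKM and 50.3% of those below that were higher. The highest of the list were heme enzymes that every cell uses, led by Urod at 15.47 FPKM in Scx-/- cells and 15.1 FPKM in control cells, then Fech at 10.7 FPKM in Scx-/- cells and 11.1 FPKM in control cells, and the red cell glycolytic enzyme Bpgm at 10.2 FPKM in Scx-/- cells and 9.405 FPKM in control cells. The only one past 1.5-fold was Mt2, a metallothionein made by many cell types. The 8 enzymes of heme synthesis outside Alas2, of which 4 are also on that list, had a median log2 ratio of 0.04.

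Other macrophage genes were likewise low. Of 48 listed, 39 had a row, 8 of them averaging 1 FPKM or more, and 24 carried the silent mark. The median log2 ratio of the 39 was 0.17, with 26 higher and 13 lower in Scx-/- cells, beside the same 49.8% and 50.3% of all genes, and 4 of the 8 genes of at least 1 FPKM were higher, with a median of 0.08. Among the higher genes of the list were the hyaluronan receptor Lyve1 at 2.66 FPKM in Scx-/- cells and 2.35 FPKM in control cells and the leukocyte plastin Lcp1 at 2.07 FPKM in Scx-/- cells and 1.74 FPKM in control cells. Spi1, which encodes the myeloid transcription factor PU.1 and was picked out after its values were seen, went the other way from most, with 0.257 FPKM in Scx-/- cells and 0.687 FPKM in control cells. The lists also differ in how far other cells express them, which was not tested.

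Lists of other cell types were read beside these genes. Endothelial markers, all 15 with a row, summed to 58.8 FPKM in Scx-/- cells and 60.6 FPKM in control cells, with a median log2 ratio of −0.09. They were split, with 5 higher and 10 lower in Scx-/- cells. Over all genes, 49.8% of those of at least 1 FPKM and 50.3% of those below were higher. Platelet and megakaryocyte markers, 5 of 11 with a row, had a median of −0.08. Of these 5, Ppbp (0.260 FPKM in Scx-/- cells and 0.192 FPKM in control cells) and Gp1bb (2.02 FPKM in Scx-/- cells and 1.98 FPKM in control cells) were higher in Scx-/- cells, while Itga2b (0.240 FPKM in Scx-/- cells and 0.339 FPKM in control cells), Gp1ba (0.268 FPKM in Scx-/- cells and 0.442 FPKM in control cells) and Itgb3 (6.33 FPKM in Scx-/- cells and 6.71 FPKM in control cells) were lower. Skeletal muscle markers summed to 441.7 FPKM in Scx-/- cells and 404.1 FPKM in control cells (median 0.08), perivascular markers had a median of 0.08, cartilage markers −0.02, epidermis markers 0.07, and nerve and Schwann cell markers 0.16. The tendon markers had a median of −0.17, with 3 of 14 higher and 11 lower in Scx-/- cells. Of the 14, 4 were 2-fold lower, Scx among them, beside 0.124% of all genes of at least 1 FPKM. Scx itself, the targeted gene, averaged 41.9 FPKM in Scx-/- cells and 88.6 FPKM in control cells, a value that does not say which part of the gene the remaining reads came from. The paper reports that in situ hybridization with a coding-sequence probe found no Scx mRNA in Scx-/- embryos. The part of these other cell types, and of the level of tendon transcript, in the red cell and macrophage ratios was not tested.

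**Figure D3:**
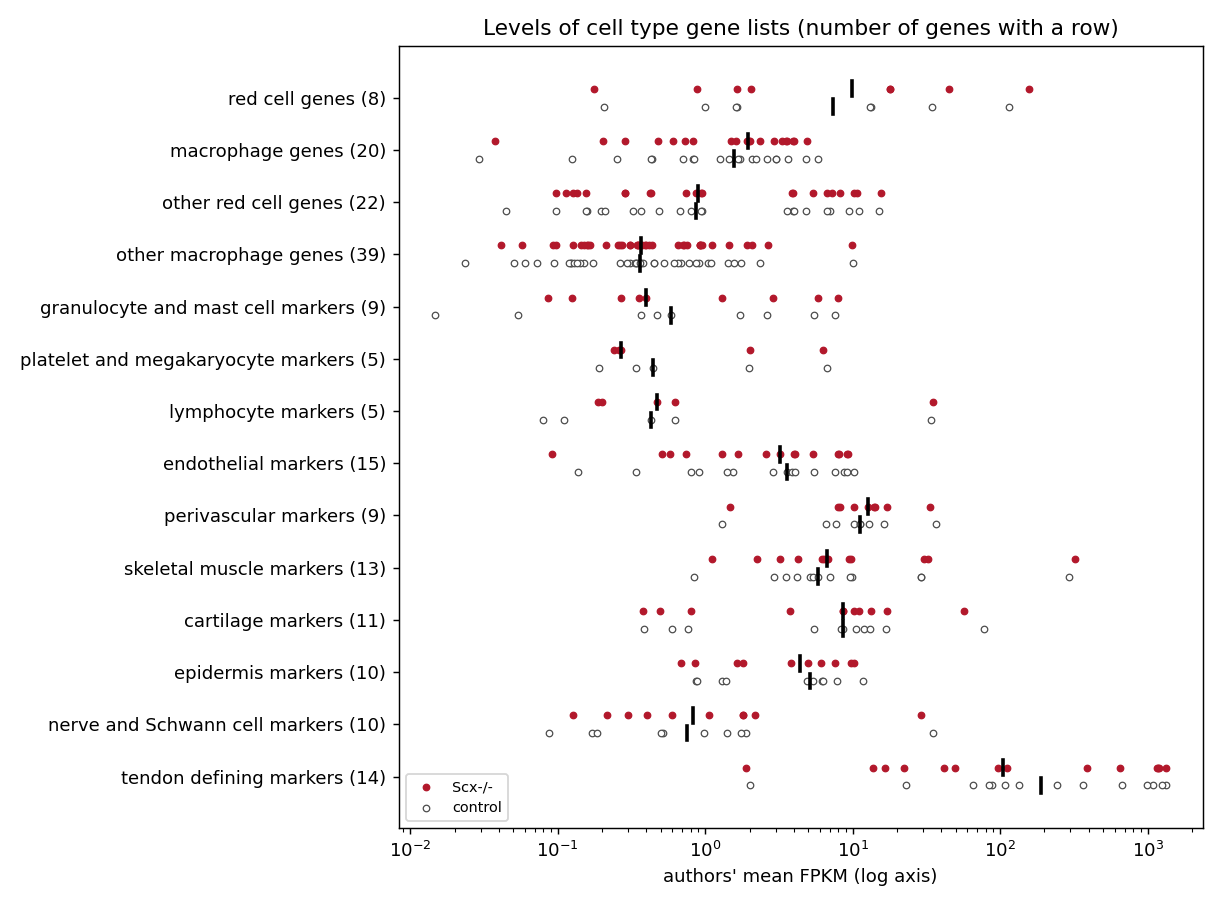
Authors' mean FPKM of single genes (points) and the median of each list (black bars) on a log axis, for Scx-/- cells (filled, upper of each pair) and control cells (open, lower), with the number of genes that have a row in brackets. The red cell genes span from 0.177 to 156.9 FPKM in Scx-/- cells, and the tendon markers have the highest list median in both groups.

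Scx peaks were looked for around the same genes. The ChIP-seq table holds 12097 peaks of 200 bp, merged by the authors over the replicates, and each gene was scored by peak centers around its annotated start. Within 5 kb, 1 of 29 genes had a peak, beside 20.9% of the 14489 protein-coding genes of the expression table, and that gene was Pf4, with a peak 3222 bp upstream. Within 50 kb, 10 of 29 had one (1 of 9 red cell genes, Slc4a1, and 9 of 20 macrophage genes), beside 48.7% of genes. The adjacent genes C1qa, C1qb and C1qc count the same single peak, 25917, 38533 and 31655 bp upstream of their starts. Within 100 kb, 18 of 29 had one, beside 67.9% of genes, and nothing is read from these shares. The nearest peaks to Hba-x and Hba-a2 lay 51375 bp upstream and 51358 bp downstream of their starts, on the outer sides of the alpha cluster. For Hbb-bs the nearest peak lay 114821 bp upstream and for Alas2 799315 bp downstream. Aif1, the gene with the largest ratio, had its nearest peak 11345 bp downstream of its start, Lyz2 94035 bp upstream and Ctss 132111 bp downstream. The peaks came from whole limbs at E13.5 and the levels from sorted cells at E15.5.

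Most matched promoters of the red cell genes held a GATA motif. RefSeq promoters (GRCm38.p6, 250 bases before to 50 bases after the start) were matched for 22 of the 29 genes, 25 promoters in all. A GATA motif, AGATAA or TGATAA on either strand, was found in 6 of 7 red cell promoters and 2 of 18 macrophage promoters, beside 18.6% of all 32851 promoters. The red cell matches that carry this contrast are shown 5′ to 3′ on the gene's strand, with the motif in capitals.
Hba-a1: tgtccgggcaacTGATAAggattccctgca
Hba-x: tgttgctggctcTGATAAcaggctccaccc
Hbb-bs: tgttctctgcacAGATAAggacaaacatta
Hbb-y: atctaatgtgcaTTATCAtaaacacagtgt
Alas2: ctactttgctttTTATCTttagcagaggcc
They lie at chr11:32283477-32283506 (Hba-a1), chr11:32276480-32276509 (Hba-x), chr7:103828121-103828150 (Hbb-bs), chr7:103853352-103853381 (Hbb-y) and chrX:150547319-150547348 (Alas2). Hba-a2 holds the same 30 bases as Hba-a1, so the 6 promoters are not 6 separate observations. The matched red cell promoter without the motif was that of Hbb-bt, a definitive globin that was also higher in Scx-/- cells, while both embryonic globins, nearly level or lower, held it. GATA1, the factor known for binding such motifs in red cells, had no row for its gene and was not analysed here.

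A motif of myeloid genes divided the classes in the opposite way. All motifs were searched on both strands, and none of them contains another. The CACCC-box form CCACACC was found in 1 of 7 red cell promoters, that of Hbb-bs, and in 0 of 18 macrophage promoters, beside 7.58% of all promoters. The PU.1 core GAGGAA was found in 1 of 7 red cell promoters (Alas2) and 11 of 18 macrophage promoters, beside 28.3% of all. The matches are shown for the CACCC box of Hbb-bs and for the PU.1 core of Aif1 and Ctss, 2 of the 3 macrophage genes past 1.5-fold. The promoter of the third, Lyz2, was matched and holds no PU.1 core.
Hbb-bs: attccgtagagCCACACCctggtaagggcc
Aif1: ataggcacccagTTCCTCcatcctattgtt
Ctss: gacacagggttgGAGGAAaactttgtcctg
They lie at chr7:103828003-103828032 (Hbb-bs), chr17:35176042-35176071 (Aif1) and chr3:95526610-95526639 (Ctss). Of the E-box forms to which basic helix-loop-helix factors bind, CATCTG and CAGCTG were searched and no others. CATCTG was found in 0 of 7 red cell promoters and 5 of 18 macrophage promoters, beside 17.2% of all, and CAGCTG in 0 of 7 red cell promoters and 9 of 18 macrophage promoters, beside 16.3% of all. With 7 promoters, 0 is not far from these shares. A match is a stretch of letters and not a measured site, and the 18 macrophage promoters belong to 15 genes. The GATA and PU.1 motifs are known from red cell and myeloid genes. A contrast between the classes was therefore likely in advance and is only described here.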

How the data were processed

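RNA-seq was made from Scx-GFP+ cells of E15.5 forelimbs (3 Scx-/- and 3 control samples) and ChIP-seq from E13.5 forelimbs (3 ChIP and 3 input samples). Per their methods, the authors amplified cDNA (Ovation RNA-Seq V2), aligned reads to mm10 with STAR 2.7.4, counted them with featureCounts, left out Y-linked genes, removed unwanted variation with RUVs and tested with DESeq2. The deposited table gives FPKM as the authors' mean of each group; how the mean was formed is not stated. Its log2 fold changes, p-values and FDR are the authors' own comparison and were not used. The authors' peak table (HOMER 4.11, edgeR) was used for its positions only.

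The set of 29 genes and the 13 further lists of cell type genes were chosen with earlier results of these data known. All 29 were named; of the other lists, the genes to name were up to 3 of highest mean FPKM and any of at least 1 FPKM changed 2-fold, with further examples chosen after their values were seen. Some genes that this rule would name are not reported here. Ratios used a pseudocount of 0.1 FPKM. A gene table of means allows no test, so none was run; code was tested on simulated data. Gene starts came from GENCODE M21, exons and coding sequences from RefSeq, both of the mm10 assembly, and promoters from RefSeq. Computations used Python 3.11.15 with numpy 2.4.6 and pandas 2.3.3. Alternatives were other pseudocounts, level filters, rescaling, centring, left-out genes and other peak windows.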

Additional observations from a re-analysis of the deposited data

How the results depend on the processing

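Medians were compared with a tolerance of 0.1 on the log2 scale, and counts, sums and shares with one of 1.5 times, since no spread between replicates was to be had. The medians of both classes and their difference stayed within tolerance with a pseudocount of 1 or 0.01 FPKM, with genes of at least 1 FPKM only, after rescaling each group to the same total with or without the globins, after centring, from ratios of summed FPKM, and without the 6 macrophage genes that other cell types also make. Without the near-identical globins the red cell median was −0.066 and the difference −0.21. With genes of at least 5 FPKM only, the macrophage median was −0.23, which is Pf4 alone, and the difference 0.66. The count past 2-fold was 3 at a threshold of 1.5-fold and 1 (Aif1) after rescaling, which makes the added 0.1 FPKM smaller beside each value. Genes with a peak numbered 1 within 5 kb and 18 within 100 kb. Taking Hba-a1 and Hba-a2 once, an alternative chosen after seeing the data, kept the red cell median (0.33) and the shares and globin ratios within tolerance. Under the other pseudocounts and after rescaling, alternatives also added after seeing the data, 0 of the 28 single genes changed sign, but 10 of 84 values, in 8 genes, moved beyond tolerance (Aif1, Alas2, C1qa, Cd14, Cd163, Ctss, Lyz2 and Slc4a1). With 1 FPKM added, Aif1 (0.546), Lyz2 (0.582) and Ctss (0.407) all fell short of 1.5-fold; the larger pseudocount shrinks every low ratio by construction.

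No paired analysis was possible because the table gives group means only, and leaving out each sample in turn was not run for the same reason. The depth behind any value is unknown, and genes below 1 FPKM scatter most between the groups.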

Other observations

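Some mast cell genes were detected beside the red cell and macrophage genes. The chymase Cma1 averaged 7.97 FPKM in Scx-/- cells and 7.54 FPKM in control cells. The carboxypeptidase Cpa3 averaged 5.83 FPKM in Scx-/- cells and 5.46 FPKM in control cells. The stem cell factor receptor Kit averaged 2.87 FPKM in Scx-/- cells and 2.62 FPKM in control cells. Cma1 was higher than any of the 20 macrophage genes in both groups. Cpa3 was higher than all of them in Scx-/- cells only, since Pf4 had 5.80 FPKM in control cells. Other mast cell genes were lower in Scx-/- cells, with Tpsb2 at 1.31 FPKM in Scx-/- cells and 1.72 FPKM in control cells and Mcpt4 at 0.397 FPKM in Scx-/- cells and 0.591 FPKM in control cells. Ms4a2, also on the list, had only 0.0865 FPKM in Scx-/- cells and 0.0536 FPKM in control cells and carried the silent mark. Fcer1a had no row and was not analysed here. The whole list of granulocyte and mast cell markers had a median log2 ratio of 0.08 over the 9 of 16 genes with a row. The neutrophil genes with a row were mixed in direction. S100a9 had 0.358 FPKM in Scx-/- cells and 0.469 FPKM in control cells, and Prtn3 0.270 FPKM in Scx-/- cells and 0.369 FPKM in control cells. Mpo went the other way, with 0.125 FPKM in Scx-/- cells and 0.0148 FPKM in control cells. S100a9, Prtn3 and Mpo all carried the silent mark.

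Lymphocyte markers were near absent apart from Ebf1, at 34.8 FPKM in Scx-/- cells and 34.1 FPKM in control cells, a transcription factor of B cells that connective tissue cells also make. The B cell receptor chain Cd79b had 0.623 FPKM in Scx-/- cells and 0.628 FPKM in control cells, and 10 of the 15 genes had no row and were not analysed here.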
